A study of Danio rerio with 20 samples.

Results

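Zebrafish genes that read or pass on the T-cell receptor signal were followed through bulk RNA of 11 leukemias, and 8 of the 32105 genes in the count table were chosen, of which 7 are described. They were taken by their Ensembl identifiers and not by a cutoff on their values, but with earlier results of these data known. Those described are the coreceptor genes cd4-1 (ENSDARG00000070668), cd8a (ENSDARG00000044797) and cd8b (ENSDARG00000058682), the receptor chain gene cd247 (ENSDARG00000100284), the kinase genes lck (ENSDARG00000102525) and zap70 (ENSDARG00000015752), and the adaptor gene lat (ENSDARG00000100334). All 7 passed the filter on low counts. The study asked how leukemias with a high and a low capacity for self-renewal differ in their transcripts. The sample labels give 8 tumors (14 libraries) as high and 3 tumors, 9.2, 10.2 and 12.2 (6 libraries), as low, while the series text counts 6 high and 5 low without naming them. All came from fish of the CG1 strain and were labelled as leukemia cells with blood as the cell type. The labels used here name no transgene, age of the fish or relation between tumors, and tumors 8.3 and 8.4.1.1.1 share a first number. Summed over its libraries, a tumor held 11573276 to 32466048 counts.

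In vertebrate T cells the antigen receptor has no enzyme activity of its own. CD4 and CD8 bind the MHC molecule that the receptor is reading and bring the Src-family kinase LCK to it. LCK phosphorylates the signalling motifs of CD247 (the zeta chain) and its partners, and ZAP70 docks there and phosphorylates the adaptor LAT, on which further enzymes assemble. Thymocytes pass through a stage that carries both coreceptors before keeping CD4 or CD8, and T-cell leukemias can resemble any of these stages. These roles are known mostly from human and mouse cells.

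All 7 genes were present in every high tumor, with the lowest count at 1055 (cd247 in tumor 14.1.1.1). The low tumors differed from each other. Tumor 12.2 held each gene at an intermediate level, whereas tumors 9.2 and 10.2 held most of them at under 1% of the median of the high tumors. Every high tumor lay above every low tumor for 7 of 7 genes, which was the case for 6.01% of the 16008 genes tested. In bulk RNA, fewer cells of a type and less RNA per cell cannot be told apart.

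**Figure D1:**
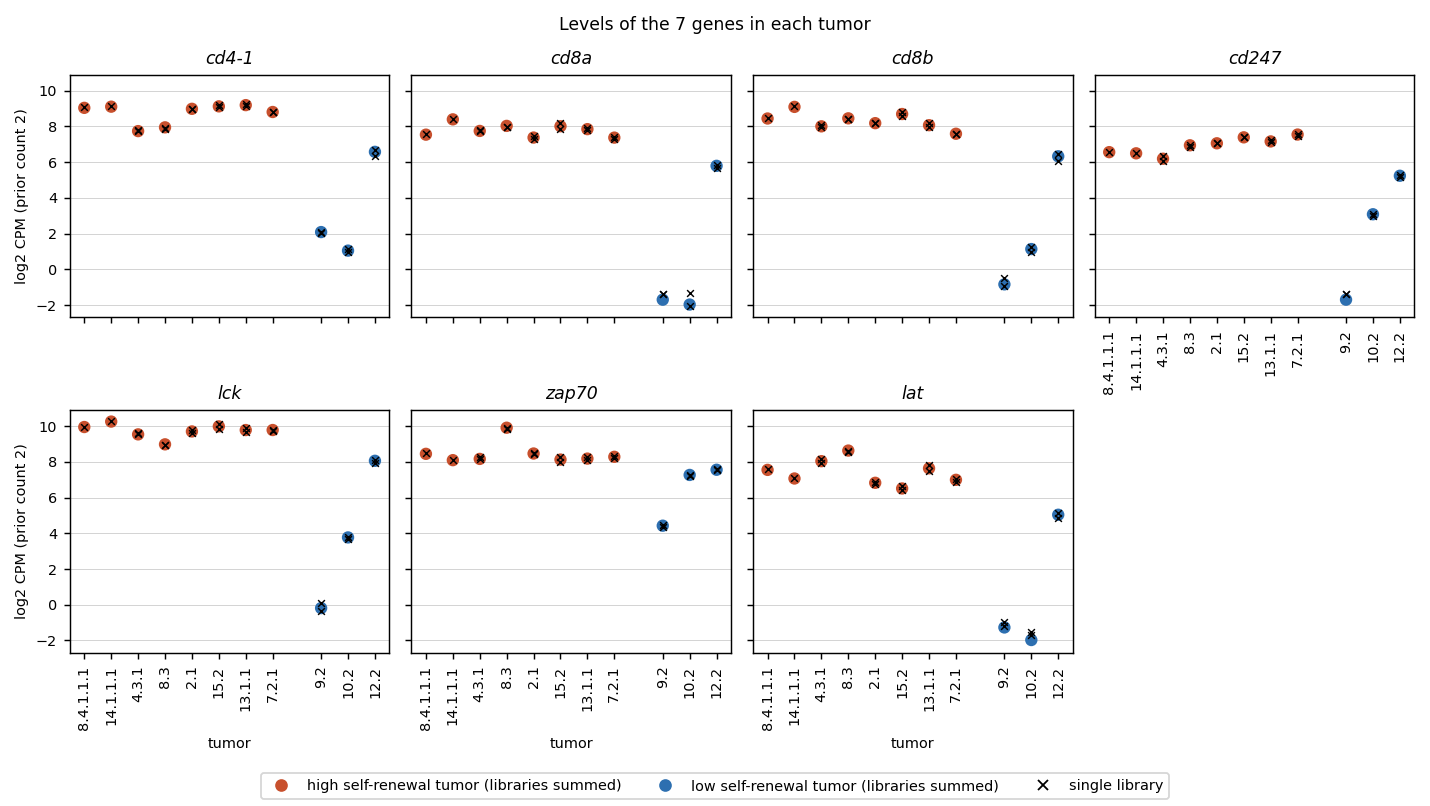
Log2 CPM (counts scaled to a common library size after TMM scaling, prior count 2) of each gene by tumor, with libraries of a tumor summed (filled points) and singly (crosses). The 8 high tumors sit together in each panel, tumor 12.2 lies below them, and for zap70 tumor 10.2 lies beside tumor 12.2.

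The CD4 coreceptor gene cd4-1 had the level 213 counts per 1000000 counts (CPM, with TMM-scaled library sizes) in the lowest high tumor (4.3.1), 514 at the median and 582 in the highest (13.1.1). The low tumors held 4.14 CPM (9.2), 1.97 CPM (10.2) and 94.98 CPM (12.2). The groups did not overlap, and the lowest high tumor was 2.24 times the highest low tumor. Among the 7 genes cd4-1 was the one called by edgeR's quasi-likelihood test, with a log2 fold change of 3.75 ± 1.07 (SE, 8 against 3 tumors) and a Benjamini-Hochberg adjusted p of 0.0475. In the same test, 4.0% of all genes tested were called higher in the high tumors. The call of cd4-1 was lost on leaving out any tumor other than 8.3 or 12.2 (adjusted p = 0.0525 to 0.1095 in those fits), and with library A of tumor 12.2 standing for that tumor.

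The CD8 chain genes cd8a and cd8b encode the partners of the CD8 coreceptor. In the RefSeq assembly GRCz12tu they lie on the same chromosome with 3 annotated genes between them. The level of cd8a was 165 CPM in the lowest high tumor (7.2.1), 222 at the median and 335 in the highest (14.1.1.1). The low tumors held 0.21 CPM (9.2), 0.16 CPM (10.2) and 55.2 CPM (12.2), the first 2 from 6 and 5 counts. For cd8b the level was 192, 318 and 544 CPM at the lowest, median and highest high tumor, again tumors 7.2.1 and 14.1.1.1 at the ends. The low tumors held 0.46, 2.10 and 79.9 CPM in the same order. Both chains were lowest and highest in the same high tumors, and neither gene's groups overlapped.

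The receptor chain gene cd247 ran from 72.7 CPM in high tumor 4.3.1 through a median of 128 to 186 CPM in tumor 7.2.1. Tumor 9.2 held 0.21 CPM from 6 counts, tumor 10.2 held 8.36 CPM from 259 counts and tumor 12.2 held 37.5 CPM. Tumor 10.2 thus carried cd247 at 6.56% of the median of the high tumors, while it carried cd8a at 0.0728% of it.

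Among the kinase genes, lck had the level 503 CPM in high tumor 8.3, 877 at the median and 1219 in tumor 14.1.1.1. The low tumors held 0.79 CPM (9.2), 13.5 CPM (10.2) and 266 CPM (12.2). The gene of the ZAP70 kinase departed from this order. Its high tumors ran from 273 CPM (14.1.1.1) through a median of 300 to 959 CPM (8.3), and its low tumors held 21.4 CPM (9.2), 154 CPM (10.2) and 188 CPM (12.2). The highest low tumor was therefore closer to the high tumors than for the other 6 genes, with a ratio of 1.45 between the lowest high and the highest low tumor against 1.89 to 2.99.

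The adaptor gene lat varied most among the high tumors, from 90.9 CPM (15.2) through a median of 160 to 395 CPM (8.3), a 4.35-fold range. Tumors 9.2, 10.2 and 12.2 held 0.32, 0.16 and 32.7 CPM, the first 2 from 9 and 5 counts. No high tumor came within the range of the low tumors.

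The 6 genes other than cd4-1 did not pass edgeR's test over all genes. Their log2 fold changes ran from 1.68 ± 0.62 for zap70 to 4.10 ± 1.37 for lat, with adjusted p-values from 0.0766 (cd247) to 0.1295 (cd8a). All 7 genes had an unadjusted edgeR p under 0.05, as did 4085 of the 16008 genes tested. The median log2 fold change was 3.60 over the 7 genes and 0.04 over all genes tested. DESeq2 called 7 of 7 higher, where it called 9.64% of all its genes higher, and limma-voom called 7 of 7 with 4.01% of all genes higher. Without tumor 12.2, edgeR called 6 of 7, where 3.58% of all genes were called higher, and the log2 fold changes were 2.17 for zap70 (adjusted p = 0.114) and 4.90 (cd247) to 10.24 (cd8a) for the others. The members were chosen with such results known, so these counts are not independent evidence of a direction.

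Markers of another lineage moved with the groups. Of 13 B-cell marker identifiers, 12 were tested, and edgeR called 11 of them lower in the high group, where it called 5.20% of all genes lower. DESeq2 called 11 of the markers and limma-voom 7. The directions of these calls and the share of all genes that either tool called lower are not given here, so these counts have no background beside them. Their summed level was 16.8 to 326 CPM in the high tumors. It was 1685 CPM in tumor 9.2, 2011 in 10.2 and 2000 in 12.2, and no marker of the list was at 0 throughout a group. The sums were alike but not their parts: in 12.2, cd74a (1038 CPM) and cd74b (667 CPM) made up most of it. In tumors 9.2, 10.2 and 12.2, ighm was at 337, 195 and 1.23 CPM, with 0.40 to 3.59 CPM in the high tumors. In the same order cd79b was at 94.6, 93.8 and 8.86 CPM, whereas PAX5 was at 116, 179 and 131 CPM. Natural killer and cytotoxic cells also use LCK, ZAP70 and CD247 in mammals. Their marker genes summed to 2.60 to 103 CPM in the high tumors and 0.29 to 10.03 CPM in the low tumors. The highest sum of each group was mostly il2rb, at 102 CPM in tumor 8.3 and 8.24 CPM in 12.2. Of 13 identifiers, 4 were at 0 in all low tumors: EOMES (ENSDARG00000006640), nitr2b, nkl.3 and prf1.3. They were near the floor in the high tumors too, with 61, 88, 19 and 2 counts in this order over all 11 tumors. The share of all genes at 0 in the low tumors is not given here, so these zeros do not show a difference between the groups. A second EOMES identifier (ENSDARG00000104243) held 0.04 CPM in tumor 9.2 and 0.18 CPM in 12.2. The 4 identifiers tested were this second EOMES identifier, il2rb, prf1.9 and tbx21. None of these 4 was called by edgeR or limma-voom, and 2 of them had an unadjusted edgeR p under 0.05. DESeq2, which was run without edgeR's filter, called 2 of the 13 identifiers, which need not be among these 4. Summed thrombocyte markers stayed at or under 10.3 CPM in every tumor, and the thymic epithelium gene foxn1 had no count in any. The summed neutrophil and macrophage markers were 29.6 to 127 CPM in the high and 48.4 to 139 CPM in the low tumors, and those of erythroid cells were 1.18 to 43.9 and 6.50 to 29.96 CPM. Those of thymic epithelium and stroma were 0.51 to 18.3 CPM in the high and 0.97 to 2.75 CPM in the low tumors. Of these 4 lists edgeR called 1 erythroid marker lower and no other gene, while DESeq2 also called 3 neutrophil and macrophage markers and 1 thymic marker. limma-voom called 1 neutrophil and macrophage marker and did not call the erythroid marker. The directions of these DESeq2 and limma-voom calls are not given here. Over all genes, DESeq2 called 9.64% higher and limma-voom 4.01%. An unadjusted edgeR p under 0.05 was found for 4 neutrophil and macrophage markers, 1 thymic marker and 0 thrombocyte markers. Over all genes tested, 4085 of 16008 had such a p. The part of these cells in the levels of the 7 genes was not tested.

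Set against the median of the high tumors, tumor 12.2 held 6 of the 7 genes in a narrow band. It carried cd4-1 at 18.5%, lat at 20.4%, cd8a at 24.9%, cd8b at 25.1%, cd247 at 29.4% and lck at 30.3% of that median. zap70 stood apart at 62.6%. In tumor 10.2 zap70 was at 51.2%, cd247 at 6.56% and lck at 1.54%, and the other 4 genes lay between 0.0728% (cd8a) and 0.660% (cd8b). In tumor 9.2 zap70 was at 7.13%, and the other 6 genes lay between 0.0895% (lck) and 0.805% (cd4-1). In each of the 3 low tumors zap70 thus had the highest percent of the 7 genes.

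**Figure D2:**
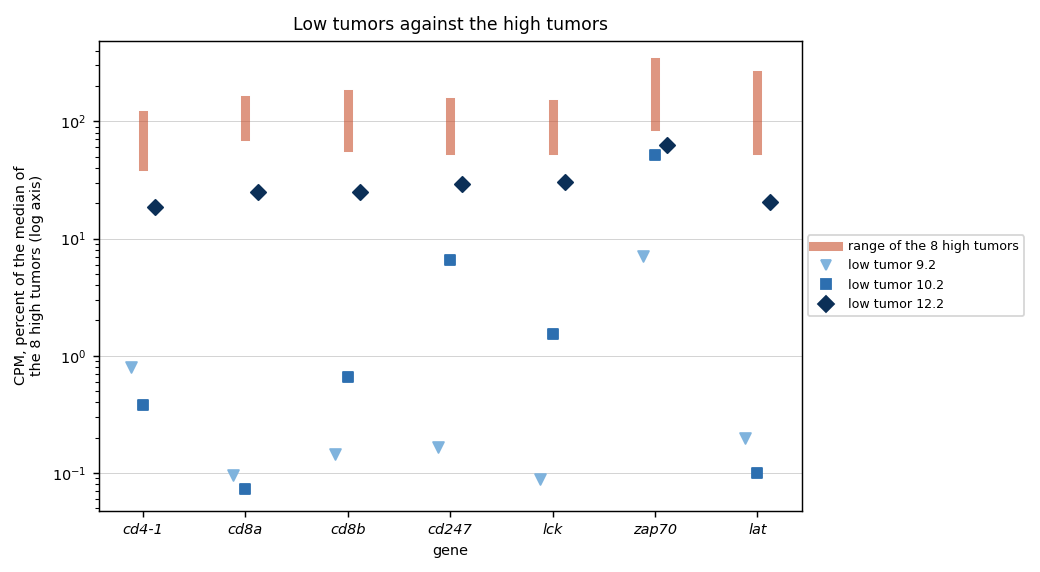
CPM of each gene in the 3 low tumors as a percent of the median of the 8 high tumors, on a log axis; bars show the range of the high tumors. Tumor 12.2 lies at 18.5% to 30.3% for 6 genes and at 62.6% for zap70. Tumors 9.2 and 10.2 lie far below, apart from zap70 in tumor 10.2 (51.2%).

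Each pair of the 7 genes was next compared as a ratio within a tumor (21 ratios, pseudocount 1), which needs no scaling between tumors. In tumor 12.2, 20 of the 21 ratios fell inside the range of the 8 high tumors. The exception was zap70 to lat, at 5.73 against 1.09 to 3.12 in the high tumors. For the ratios of cd8a, cd8b, cd247, lck and cd4-1 to zap70, tumor 8.3 alone set the low end of the range. Tumor 12.2 had 0.294, 0.426, 0.200, 1.415 and 0.506 there, against 0.271, 0.364, 0.128, 0.525 and 0.256 in 8.3. It lay below all other high tumors in these ratios. The 21 ratios share 7 genes and are not independent of each other. In tumor 9.2, 8 of the 21 ratios were inside that range, where 5 of the 7 genes had 22 counts or fewer, and in tumor 10.2, 2 were. The libraries of tumor 12.2 had unequal depth and differed more than those of the other tumors, with a chi-square of 36.2 per degree of freedom against 1.32 to 14.7. Library A and library B gave 187 and 192 CPM for zap70, 280 and 241 for lck, 103 and 80.8 for cd4-1, and 86.9 and 67.1 for cd8b.

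The balance of the coreceptor genes was described by the share of cd4-1 among the counts of cd4-1 and cd8a. The genes' lengths are not corrected for, so a share can be compared between tumors but does not say which gene was higher. In the high tumors the share was lowest in 8.3, at 48.6% (95% Clopper-Pearson interval 47.8 to 49.4), and in 4.3.1, at 49.9% (48.9 to 50.8). It was 62.1% (61.1 to 63.0) in tumor 14.1.1.1, 68.4% in 15.2, 71.7% in 13.1.1, 73.0% in 7.2.1, 73.9% in 8.4.1.1.1 and 75.3% (74.5 to 76.1) in 2.1. Tumors 8.3 and 4.3.1 thus lay apart from the other 6 by more than counting error, which is all that these intervals cover.

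Among the low tumors, the share was 63.3% (61.3 to 65.2) in 12.2, inside the range of the high tumors. It was 95.1% (89.6 to 98.2) in tumor 9.2, from 116 against 6 counts, and 92.4% (83.2 to 97.5) in tumor 10.2, from 61 against 5 counts. Here cd4-1 transcripts were still counted where cd8a was nearly absent. The mean log2 ratio of cd4-1 to cd8a averaged 0.95 ± 0.68 (SD, n = 8) over the high group. Over the low group it averaged 2.74 ± 1.73 (SD, n = 3), and the groups overlapped. The difference of -1.79 did not pass an exact two-sided permutation test (p = 0.0727, adjusted p = 0.0909 over 5 ratios, of which 4 are reported). Without tumor 12.2 it was -2.76 (exact permutation adjusted p = 0.0444, the smallest that 8 against 2 tumors allow), without 9.2 it was -1.12 and without 10.2 it was -1.47.

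The ratio of cd8a to cd8b was the steadiest of the 21 ratios among the high tumors. It ran from 0.535 (8.4.1.1.1) to 0.860 (7.2.1), a 1.61-fold range, and its SD on the log2 scale was 0.28. Tumor 12.2 lay inside that range at 0.691. Tumor 9.2 was at 0.462, from 6 against 13 counts, and tumor 10.2 was at 0.0769, from 5 against 65 counts. In tumor 10.2 cd8b was therefore counted without a matching level of cd8a. The group means did not differ beyond their spread (log2 difference 1.14, exact two-sided permutation p = 0.0970, adjusted p = 0.0970), and the difference rested on tumor 10.2: without it the log2 difference was 0.24 (exact permutation adjusted p = 0.356). Without tumor 12.2 it was 1.70 (exact permutation adjusted p = 0.0444, the smallest that 8 against 2 tumors allow).

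**Figure D3:**
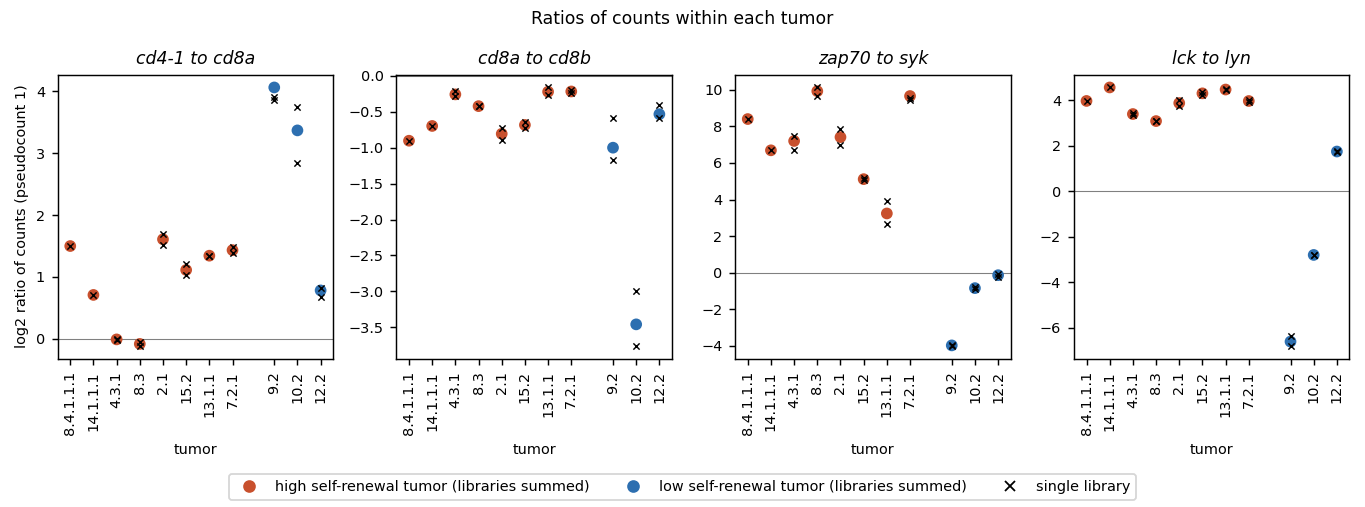
Log2 ratio of counts (pseudocount 1) for 4 gene pairs by tumor, with libraries summed (filled points) and singly (crosses). For zap70 to syk and lck to lyn all high tumors lie above all low tumors, whereas the groups overlap for the other 2 pairs, where tumor 12.2 lies among the high tumors.

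The kinase genes zap70 and lck have relatives that act below the B-cell receptor, SYK for ZAP70 and LYN for LCK, and the ratio within each pair was compared. The ratio of zap70 to syk was 9.47 in high tumor 13.1.1, 163 at the median and 1006 in tumor 8.3. It was 0.0637, 0.559 and 0.912 in low tumors 9.2, 10.2 and 12.2. The groups did not overlap, and the log2 difference of 8.86 had the smallest p that 8 against 3 tumors allow (exact two-sided permutation p = 0.0121, adjusted p = 0.0303). Every high tumor was above every low tumor in zap70 and below it in syk. The ratio therefore had to separate the groups, and its p adds nothing to the levels of the 2 genes. The level of syk itself was 336, 275 and 206 CPM in tumors 9.2, 10.2 and 12.2, and 0.34 to 30.6 CPM in the high tumors, with 30.6 CPM in 13.1.1. Tumors 10.2 and 12.2 thus carried both kinase genes, whereas tumor 9.2 carried little zap70 beside syk.

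The ratio of lck to lyn was 8.54 (8.3) to 23.9 (14.1.1.1) in the high tumors, with a median of 15.8, and 0.00980, 0.144 and 3.38 in tumors 9.2, 10.2 and 12.2. The groups did not overlap (log2 difference 6.52, exact two-sided permutation p = 0.0121, adjusted p = 0.0303). Every high tumor was above every low tumor in lck and below it in lyn, so this p was also fixed by the levels. The level of lyn differed less than that of lck: it was at 39.2 to 70.0 CPM in high and 78.7 to 94.1 CPM in low tumors and was not called by edgeR's test (adjusted p = 0.0559). With tumor 9.2 left out the log2 differences were 7.69 for zap70 to syk and 4.49 for lck to lyn, and with 10.2 left out they were 9.26 and 6.39. The exact permutation adjusted p was then 0.111, but 8 against 2 tumors allow no p under 0.0444 before adjustment, so that says nothing about stability.

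Within the high group the 7 genes did not move as a block. The SD of log2 CPM over the 8 tumors was 0.36 for cd8a and 0.38 for lck, below that of 76.7% and 73.9% of the genes tested. It was 0.46 for cd8b, 0.47 for cd247, 0.57 for cd4-1, 0.60 for zap70 and 0.70 for lat, where the median gene had 0.61. The pooled SD between libraries of a high tumor was 0.05 to 0.14, so the larger differences between tumors exceeded the spread between libraries. Of the 7 gaps between neighbouring tumors in the order of levels, 6 exceeded that library SD for cd4-1, 5 for cd8b, cd247 and lat, 4 for lck and cd8a, and 2 for zap70. For zap70 the gaps larger than it lay below tumor 8.3 and between tumors 8.4.1.1.1 and 7.2.1.

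Tumor 8.3 departed most from the mean profile, with a mean absolute deviation of 0.66 on the log2 scale. Tumors 14.1.1.1 (0.48), 4.3.1 (0.46) and 15.2 (0.42) followed close to each other. Tumors 14.1.1.1 and 8.4.1.1.1 had 1 library each. In tumor 8.3, zap70 was 1.45 and lat 1.22 above the mean of the high tumors, while lck was at -0.77 and cd4-1 at -0.79. cd8a (0.24) and cd8b (0.14) lay slightly above the mean there. In tumor 14.1.1.1, lck (0.51), cd4-1 (0.36), zap70 (-0.36) and lat (-0.34) had the opposite sign to tumor 8.3, while cd8b (0.78) and cd8a (0.61) had the same sign. Tumor 15.2 had the same signs as tumor 14.1.1.1 in all of these genes. The mean includes tumor 8.3 itself, which raised it for zap70. Tumor 4.3.1 held cd4-1 at -1.004 and lat at 0.63. Tumor 8.4.1.1.1 lay closest to the mean, with a mean absolute deviation of 0.20.

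**Figure D4:**
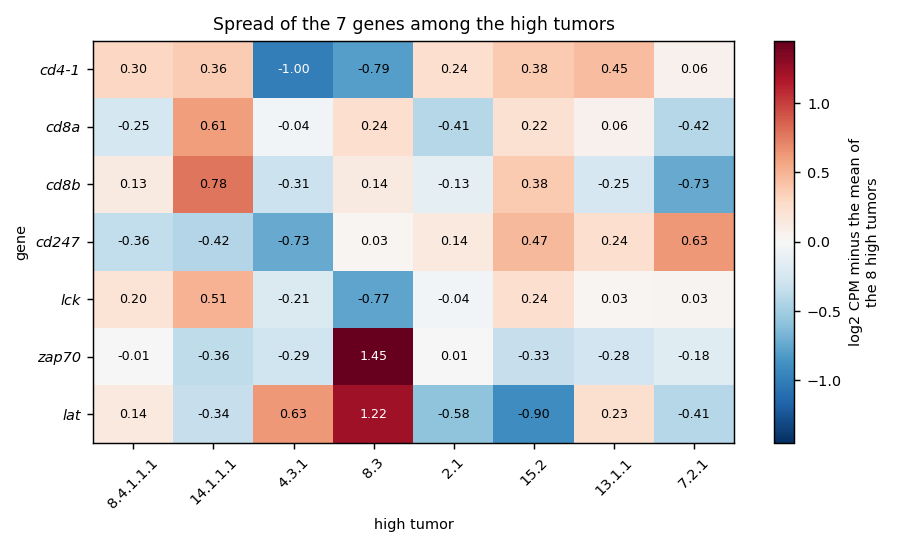
Log2 CPM of each gene minus its mean over the 8 high tumors, as a color and a printed value per tumor. Tumor 8.3 is high in zap70 (1.45) and lat (1.22) and low in lck (-0.77), and tumor 14.1.1.1 is high in cd8b (0.78).

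Correlations of log2 CPM were computed over the 8 high tumors and adjusted over the 28 pairs of the 8 chosen genes, of which 21 are reported. After adjustment 0 of the 21 pairs passed by Pearson's r or by Spearman's rho, and 3 pairs had an unadjusted exact permutation p under 0.05 by Pearson's r. The pair cd8a and cd8b had r = 0.80 (exact permutation p = 0.0190, adjusted p = 0.365) and rho = 0.79 (exact permutation p = 0.0279, adjusted p = 0.701), with r = 0.40 without tumors 14.1.1.1 and 7.2.1. The pair lck and cd4-1 had r = 0.77 (exact permutation p = 0.0391, adjusted p = 0.365) and rho = 0.67 (exact permutation p = 0.0831, adjusted p = 0.701), with r = 0.78 without tumors 14.1.1.1 and 8.3. The pair lck and lat had r = -0.77 (exact permutation p = 0.0376, adjusted p = 0.365) and rho = -0.62 (exact permutation p = 0.115, adjusted p = 0.701), with r = -0.55 without the same tumors. Of the 21 values of r, 11 were above 0.

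The genes whose log2 CPM over the 8 high tumors was most like that of each member were found among 10021 named genes, as a description over 8 points that share their scaling. For lck they were slc25a14, ahcyl2b and FPGS (r = 0.97 to 0.98). For cd4-1 they were ADAMTS5, ext1c and lrrfip1a (0.94 to 0.95), for cd8a ABHD17B, REEP3 and CLDND1 (0.95 to 0.98), and for cd8b TMEM147, mrpl9 and CD81 (0.93 to 0.94). For cd247 they were oaz2b, foxo3b and mid1ip1l (0.94 to 0.95), for zap70 UFD1, borcs6 and trappc2 (0.98 to 0.99), and for lat TAF8, ARFRP1 and ATP13A2 (0.95 to 0.96). The values of r for zap70 mostly reflect tumor 8.3. There zap70 was 1.45 above the mean of the high tumors on the log2 scale, against -0.36 to 0.007 in the others. They were not computed again without that tumor. No member was among the 3 nearest genes of another.

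The genes that act around these genes in T-cell receptor signalling were read from a separate list of 57 identifiers, of which 53 were tested. By edgeR's test the high tumors had 14 of them higher and 2 lower, with a median log2 fold change of 0.97 beside 0.04 over all genes, of which 4.0% were higher and 5.20% lower. Without tumor 10.2 the counts were 7 and 1, and the share of all genes called in that fit is not given here. The B-cell marker levels given above moved with the same groups.

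Of 3 other receptor chain and coreceptor identifiers, 0 were called by edgeR, DESeq2 or limma-voom, and 0 had an unadjusted edgeR p under 0.05. The T-cell receptor beta constant gene trbc1 (ENSDARG00000091233) was at 169 CPM in high tumor 2.1, 136 in 15.2, 126 in 7.2.1 and 101 in 13.1.1. In the other 4 high tumors it was at 0.51 CPM or less, and it had no count in tumor 8.3. The low tumors held 0.04 CPM (9.2), 0.06 CPM (10.2) and 6.34 CPM (12.2). The high tumors thus fell into a pair of classes for trbc1, while each of the 7 genes was counted in all of them, and the groups did not differ beyond their spread (log2 fold change 5.01 ± 2.75, edgeR adjusted p = 0.283). The list entries trbc2, trac, tcra, tcrb, cd3e, cd3g and cd3d matched no identifier. A low level of trbc1 therefore does not say that a tumor lacked receptor chain transcripts. The coreceptor gene cd4-2.2 (ENSDARG00000073950), which follows cd4-1 and cd4-2.1 in GRCz12tu, stayed between 0.35 and 3.84 CPM in the 11 tumors. The remaining identifier, cd28 (ENSDARG00000095070), was named once its values were known and went the other way, with a log2 fold change of -1.155 ± 0.768. It was highest in tumor 9.2, at 10.88 CPM, against 0.4252 to 4.407 CPM in the high tumors. Tumors 10.2 and 12.2 lay inside that range for cd28.

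Of 6 kinase identifiers, edgeR called 1 higher and 1 lower, and their median log2 fold change was -1.155. Their summed level was 138.5 to 239.7 CPM in the high tumors and 249.6 to 369.2 CPM in the low tumors. This role thus ran lower in the high tumors, unlike the list as a whole. The higher gene was fynb (ENSDARG00000025319), a Src-family relative of lck, by 1.38 ± 0.31 on the log2 scale (edgeR adjusted p = 0.0192). CSK (ENSDARG00000067996), the kinase that holds LCK inactive, was lower, with a log2 fold change of -1.12 ± 0.21 (edgeR adjusted p = 0.00688). Its level was 77.8 to 146 CPM in the high tumors and 196 to 276 CPM in the low tumors. Leaving out tumor 10.2 ended both calls, with edgeR adjusted p = 0.0763 for fynb and 0.0531 for CSK. The other kinase identifiers were not called and were named once their values were known. FYN had a log2 fold change of -1.7 ± 1.69, txk -1.44 ± 1.02 and tec -1.19 ± 0.704, while PRKCQ had 3.67 ± 1.43.

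Of 17 tested adaptor and exchange factor identifiers, 4 were higher and none lower. The genes of the GADS adaptor, which links LAT to SLP-76, were among them: grap2b (ENSDARG00000101169) by 1.47 ± 0.20 and GRAP2 (ENSDARG00000006468) by 5.18 ± 1.03, the latter lost without tumor 10.2 (edgeR adjusted p = 0.0528). A paralogue of the adaptor gene NCK1 (ENSDARG00000075369) was higher by 2.39 ± 0.36, and the thymocyte signalling gene THEMIS (ENSDARG00000010619) by 6.11 ± 1.32. In tumor 12.2 grap2b stood at 180 CPM and THEMIS at 6.40 CPM, against high-tumor medians of 695 and 117 CPM.

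Of 13 tested genes that the list places among the brakes on the signal, 5 were higher and 1 was lower. The role was assigned by the list and was not tested, and ptprc, placed there too, was not called. DGKA (ENSDARG00000060626), a kinase gene that removes the second messenger diacylglycerol, was higher by 3.57 ± 0.55, the docking protein gene dok2 (ENSDARG00000075818) by 3.17 ± 0.51, and the ubiquitin ligase gene CBL (ENSDARG00000009958) by 1.33 ± 0.23. One paralogue of the related kinase gene DGKZ (ENSDARG00000076025) was lower, with -3.89 ± 0.75. The other paralogue (ENSDARG00000014439) had 2.08 ± 0.41 and was higher; it was named once its values were known. All 4 genes named by the rule kept their call whichever tumor was left out.

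Of 14 tested downstream effectors, 4 were higher and none lower. They were NFATC3 (ENSDARG00000076297) by 2.80 ± 0.68, the calcineurin subunit gene ppp3cb (ENSDARG00000025106) by 2.59 ± 0.65, a paralogue of the calcium channel gene ORAI1 (ENSDARG00000011515) by 1.31 ± 0.35, and PLCG1 (ENSDARG00000038442), the phospholipase C of the pathway, by 1.102 ± 0.304. limma-voom did not call ppp3cb or ORAI1. Each of these calls depended on single tumors: NFATC3 lost it without 9.2 or 10.2, ppp3cb without any low tumor, ORAI1 without any of 6 tumors (8.4.1.1.1, 13.1.1, 7.2.1, 9.2, 10.2, 12.2) and PLCG1 without any of 7 (8.4.1.1.1, 4.3.1, 2.1, 13.1.1, 7.2.1, 9.2, 10.2), with edgeR adjusted p from 0.0505 to 0.181.

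Of 11 tested counterparts from B-cell receptor signalling, 5 were lower and 1 was higher, with a median log2 fold change of -1.09. Over all genes, edgeR called 5.20% lower and 4.0% higher. The lower genes cd79b and cd79a are also on the list of B-cell markers, so their calls repeat calls counted there. Besides the receptor chain genes cd79b (ENSDARG00000104691) and cd79a (ENSDARG00000037473), the adaptor gene blnk (ENSDARG00000042722), which holds the place of SLP-76 below the B-cell receptor, had -6.27 ± 1.14 and SYK (ENSDARG00000008186) had -5.52 ± 1.05 on the log2 scale. blnk was not called by limma-voom. Its level was 141 CPM in tumor 9.2 and 46.4 CPM in 10.2. In tumor 12.2 it was 1.05 CPM, inside the range of the high tumors (0.04 to 2.53 CPM). The higher gene was a paralogue of the protein kinase C gene PRKCB (ENSDARG00000022254, log2 fold change 2.13 ± 0.42), which was also named once its values were known.

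**Figure D5:**
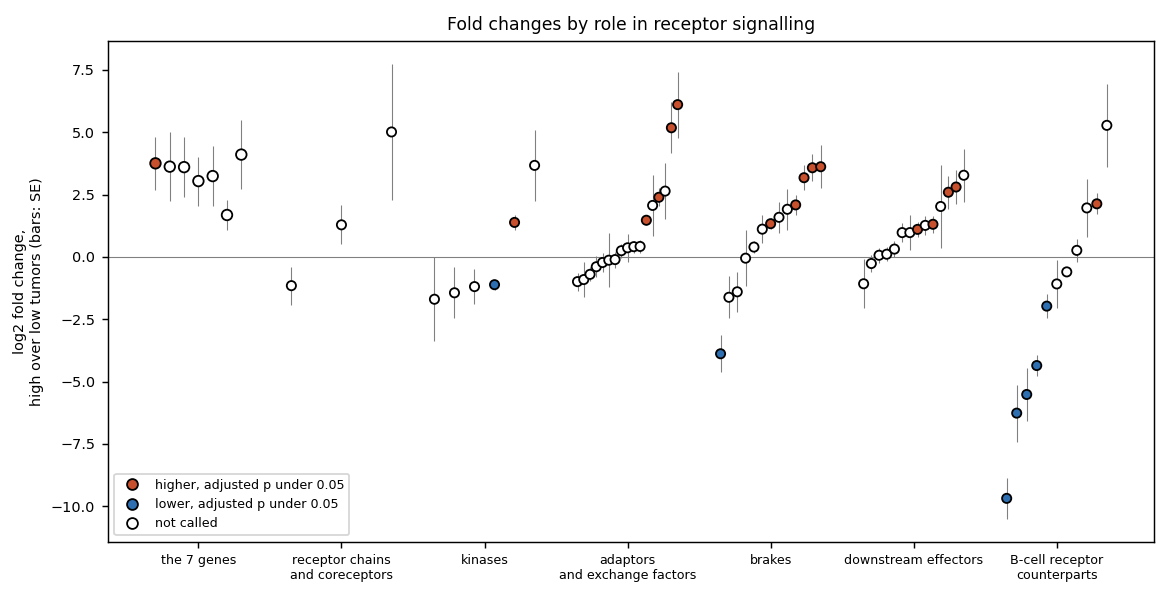
Log2 fold change of high over low tumors (bars: SE) for the 7 genes and for listed genes of receptor signalling by role; filled points passed edgeR's test. The 7 genes lie between 1.68 and 4.10 with 1 filled, and 5 of the B-cell receptor counterparts lie below 0 and filled.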

How the data were processed

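Bulk polyA RNA of 20 libraries from 11 tumors was read on a HiSeq 2000, per the labels. The authors deposited raw counts per gene, 1 column per library and not normalized. The submitters' processing notes name GRCz10, featureCounts, STAR and Picard. Their versions and the use of strand are not given here, so overlapping or antisense genes and close paralogues are uncertain. Libraries of a tumor were summed (9 tumors had 2, while 14.1.1.1 and 8.4.1.1.1 had 1). Names came from a gene name table (26269 of 32105 identifiers), where zap70 appears in capitals. Of 149 list entries 33 were not matched, among them 13 of 16 receptor chain and coreceptor entries; an entry without its own symbol took every identifier of the shared symbol.

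Counts were fitted in R 4.3.3 with edgeR 4.0.16 (filterByExpr, TMM, glmQLFit, glmQLFTest, two-sided) over 16008 genes with a threshold of 0.05 after Benjamini-Hochberg adjustment. The SE given for an edgeR log2 fold change is its absolute size divided by the square root of the test's F value. The labels do not say that tumors came from separate fish, so p-values cover only how these tumors vary. CPM and log2 CPM use TMM sizes; log2 CPM has a prior count of 2. Ratios and correlations were tested by exact permutation in Python 3.11.15 (scipy 1.17.1 for intervals). DESeq2 1.42.0, limma 3.58.1, other scalings, filters and left-out tumors were alternatives. Members and lists were chosen with earlier results of these data known. Of the 8 members 1 is not reported here, although p-values of ratios and correlations were adjusted over families that hold it; the other 7 are all named, and, of each list role, up to 4 called genes by p, or 2 where none was called. The edgeR test was checked on simulated counts, and the permutation test of group differences on values with a known answer. Libraries of a tumor differed by more than sampling noise (chi-square per degree of freedom 1.32 to 36.2 over genes with at least 10 counts), so no library was a copy.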

Additional observations from a re-analysis of the deposited data

Results flagged for a closer look

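zap70 in tumor 8.3 stood far from the other 7 high tumors, with a log2 CPM of 9.91 and a gap to the nearest tumor of 0.795 of the group's whole range, above Dixon's 95% critical value for 8 tumors. Its libraries, scaled singly, held 938 and 916 CPM. It was the only such value among 11 groups checked (7 genes and 4 ratios over the high tumors), and chance flags about 1 in 20. Without tumor 8.3 the log2 fold change of zap70 was 1.34 instead of 1.68, not called in either fit (edgeR adjusted p = 0.108 and 0.114).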

How the results depend on the processing

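The direction of all 7 fold changes and of all 4 ratios held in every alternative. The number of the 7 genes called higher was 1 with RLE or upper-quartile factors, without the filter and with thinned counts. It was 7 with DESeq2, limma-voom and 20 libraries as units, and 7 with the replicate block. Leaving out each tumor in turn gave 0 to 6. With tumor 12.2 as its library A alone, chosen after seeing the data, it was 0. limma-voom, which averages log values, gave larger fold changes (7.91 for cd8a). The listed T-cell receptor genes gave 25 higher and 4 lower with libraries as units, 24 and 5 with the replicate block, and 7 to 16 higher and 1 to 4 lower on leaving out tumors, the 4 without tumor 8.3. The B-cell receptor counterparts had 2 higher with DESeq2, with libraries as units and with the block. Library numbers pair only by number: the differences between libraries of a tumor correlated by -0.28 to 0.27 between tumors. Libraries of a tumor are not independent, so those p-values are too small. The share of all genes called is given above for DESeq2, limma-voom and the fit without tumor 12.2, and only for higher genes. It is not given here for the other alternatives, so their counts cannot be set against a background.

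Leaving out tumors, the log2 ratio difference ran from -2.76 to -1.12 for cd4-1 to cd8a, 0.24 to 1.70 for cd8a to cd8b, 7.69 to 9.61 for zap70 to syk, and 4.49 to 8.67 for lck to lyn. No pair correlation passed under any of 10 alternatives. Counts of 5 to 22 in tumors 9.2 and 10.2 limit the ratios there, and 3 low tumors that differ among themselves limit every test between groups.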

Other observations

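The 4 high tumors with trbc1 at 101 to 169 CPM (2.1, 15.2, 7.2.1 and 13.1.1) were also the 4 with the highest level of the receptor chain gene cd247, at 132 to 186 CPM against 72.7 to 122.5 CPM in the other 4. The order was noticed after the values were seen and was not tested.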
